A study of Mus musculus with 12 samples.

Results

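miR-221 and miR-222 are 2 microRNAs made from neighbouring hairpins on the X chromosome. They were chosen by name, with any star or arm suffix, from a table of 689 miRNA entries, and 2 entries matched, mmu-miR-221 and mmu-miR-222, each listed once and with no suffix. The table measured small RNA that came down with tagged AGO2 from mouse embryonic stem cells carrying a doxycycline-inducible HA-Flag-AGO2, grown on gelatin with leukemia inhibitory factor at passages that the labels give as a range. All 12 libraries came from these transgenic cells and from the same anti-FLAG pull-down. They formed 4 groups of 3: the nuclear fraction with doxycycline (2.5 ug/ml for 15 h before harvest), the total fraction with the same treatment, and both fractions without doxycycline. The labels name the second fraction "Total", while the protocol speaks of a cytoplasmic fraction, and whether it held nuclei is not settled by either. The tagged protein was an induced extra copy of AGO2, so the reads describe what that copy held. Neither the number of clones behind the line nor the separateness of the 3 cultures of a group is given in the sources used here.

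AGO2 is the Argonaute protein that carries a miRNA to its target RNAs, and it selects them mainly by pairing with the seed, bases 2 to 8 of the miRNA. miR-221 and miR-222 share their seed, are transcribed together, and are known in human cells for repressing CDKN1B (p27), a brake on entry into S phase, and the receptor KIT. They are abundant in many differentiated and transformed cells, while the miRNA pool of mouse embryonic stem cells is dominated by the miR-290 cluster.

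The sequences are shown because the pair shares its seed and differs in the 3' part. They are the RefSeq sequences on GRCm38.p6, 5' to 3', with the seed in capitals. The older unsuffixed names stand for the 3p arms, and miR-1928 is the remaining mouse miRNA with this seed.
mmu-miR-221-3p: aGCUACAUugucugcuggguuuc
mmu-miR-222-3p: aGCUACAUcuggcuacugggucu
mmu-miR-1928: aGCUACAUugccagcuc
Of 1738 mature mouse sequences in the RefSeq table, 3 had this seed, and the same 3 had bases 2 to 7 of it. Counted from 1 at the 5' end, miR-221 and miR-222 were identical over the first 8 bases, first differed at position 9 (U9C, from miR-221 to miR-222), and were identical at 11 of 23 positions. Their means with doxycycline gave whole reads when multiplied by 3, with no sign of reads divided between entries, while miR-222 gave 10.5 in the nuclear fraction without doxycycline. miR-1928, which was identical to miR-221 over its first 10 bases and first differed at U11C, had 3 nuclear reads over the group with doxycycline and 4 without it. It had 0 reads in both total groups, where the 95% Wilson counting interval reached 2.37 CPM with and 79.8 CPM without doxycycline. CPM is the number of reads scaled to a common library total of all miRNA reads. With doxycycline nearly all reads with this seed were thus those of miR-221 and miR-222. Without it the 4 nuclear reads of miR-1928 stood beside 42.5 of the pair, and the total group held 10 reads of the pair.

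The hairpins lie on the minus strand of chromosome X of GRCm38, miR-222 at chrX:19146893-19146971 and miR-221 at chrX:19146294-19146388, with 504 bases between them. The 3p arm is in capitals in each.
Mir222 hairpin: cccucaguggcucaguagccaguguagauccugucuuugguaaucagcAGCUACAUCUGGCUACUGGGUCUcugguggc
Mir221 hairpin: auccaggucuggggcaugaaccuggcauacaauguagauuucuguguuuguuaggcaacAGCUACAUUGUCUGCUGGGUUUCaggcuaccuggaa
Both lie between genes in GENCODE vM21, where no other gene overlaps the pair. The nearest annotated gene on the higher side is Gm14636, a processed transcript on the same strand, 10009 bases away and thus upstream of both hairpins. The nearest on the lower side is the pseudogene Gm5383, 203065 bases away.

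To show the seed against known targets, the 3' untranslated regions (the longest annotated per gene in GENCODE vM21) were searched on the sense strand for ATGTAGC, the complement of bases 2 to 8. Each stretch below has the match in capitals.
Cdkn1b: aaaagcattggATGTAGCattgcgcaatta
Kit, first match: atgggagatatATGTAGCaagactagaaaa
Kit, second match: taaatattgaaATGTAGCaataatgtcttt
The region of Cdkn1b, the mouse gene for p27, held 1 match in 3439 bases, at chr6:134924420-134924449 on the plus strand in exon 2. That of Kit held 2 matches in 2177 bases, at chr5:75654981-75655010 and chr5:75656512-75656541 on the plus strand in exon 21. The 7 letters occurred in 9.42% of 20979 such regions, in 23.3% of 974 regions within 10% of the length of the Cdkn1b one, and in 15.0% of 1337 within 10% of that of Kit. A match describes these letters and is not evidence of binding.

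The authors gave 1 mean estimated count per entry and group, so no difference here has a replicate check, and errors are 95% counting intervals over the reads of a group. With doxycycline the mean library total was 400794 reads (nuclear) and 539627 (total), and without it 36329.9 and 16053.4. miRNAs that mark embryonic stem cells (the clusters of miR-290 and miR-302, 22 entries, all above 0) took 65.8% of nuclear and 68.9% of total reads with doxycycline, and 14.3% and 32.3% without it. Without doxycycline a single entry, miR-805, made up 63.7% of the nuclear and 33.3% of the total reads; with it, 3.27% and 0.833%.

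By reads, miR-221 was a minor component of the AGO2-bound miRNAs in these cells and miR-222 a smaller one. In a bulk pull-down, more of a miRNA per cell and more cells that make it cannot be told apart. With doxycycline miR-221 had a mean count of 138.3 (nuclear) and 251.3 (total), and without it of 10.7 and 1.67. miR-222 had 59.3 and 83.3 with doxycycline, and 3.5 and 1.67 without it. These are raw counts, and the libraries with doxycycline were deeper, so they are not levels. In the total fraction without doxycycline, 5 reads of each miRNA were found over the group.

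As a level, miR-221 stood at 466 CPM (434 to 500) in the total and 345 CPM (314 to 380) in the nuclear fraction with doxycycline, and at 293.6 CPM (207.99 to 414) in the nuclear and 104 CPM (44.3 to 243) in the total fraction without it. In that order the highest and the second do not overlap, while each later neighbour overlaps the one before. For miR-222 the levels were 154 CPM (136 to 175) in the total and 148 CPM (127.8 to 171) in the nuclear fraction with doxycycline, and 104 CPM (44.3 to 243) and 96.3 CPM (49.8 to 169) in the total and nuclear fractions without it. None of its neighbours in that order differ beyond their intervals. The order rests on miR-805, because with it left out of the totals the nuclear fraction without doxycycline came first for both, at 808 CPM for miR-221 and 265 CPM for miR-222.

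**Figure D1:**
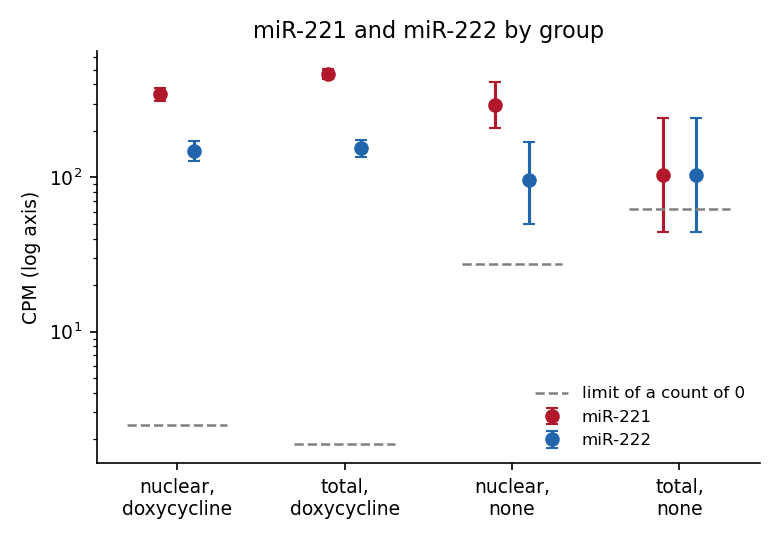
Level of miR-221 (red) and miR-222 (blue) in CPM, on a log axis, in the 4 groups. Bars are 95% Wilson counting intervals, and dashed lines are the level given to a count of 0, which is 3 reads over the group. With doxycycline miR-221 lies at 345 and 466 CPM and miR-222 at 148 and 154 CPM, far above the dashed lines at 2.50 and 1.85 CPM, while without it both intervals of the total fraction reach below its line at 62.3 CPM.

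With doxycycline miR-221 was above 80.7% of the 689 entries in the total and above 77.9% in the nuclear fraction, and miR-222 was above 70.0% and 68.9%. The most abundant entry, miR-294 of the miR-290 cluster, stood at 191772 CPM in the total fraction. Directly above miR-221 in the total fraction were miR-296-5p at 255 mean reads, miR-335-3p at 261.7 and miR-301a at 264.7, and directly below it miR-361 at 246.7, miR-466c-5p at 244.5 and miR-290-3p at 239.2. None of these 6 differed from miR-221 beyond counting error. Around miR-222 in the same fraction lay miR-151-3p at 86.0, miR-92b at 86.2 and miR-183* at 86.7 above, and miR-673-5p and miR-30c-1*, both at 81.7, and miR-324-5p at 80.7 below, again none beyond counting error. In the nuclear fraction with doxycycline the 6 nearest entries of each were likewise within counting error, from miR-18b at 127.3 to miR-151-5p at 147.7 for miR-221 and from miR-138 at 55.3 to miR-466f at 60.4 for miR-222.

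The balance of reads between the cluster partners can be taken within a group, where no scaling enters. How evenly the library steps captured the 2 sequences was not tested, so these are ratios of reads. With doxycycline each read of miR-222 was matched by 2.33 reads of miR-221 in the nuclear fraction (1.95 to 2.79) and by 3.02 in the total one (2.61 to 3.49). Without doxycycline the ratio was 3.05 in the nuclear (1.53 to 7.30) and 1.00 in the total fraction (0.230 to 4.35). Reads of miR-221 exceeded those of miR-222 beyond counting error in the first 3 of these groups, and the fourth rests on 10 reads in all. As a share of the reads of both, miR-222 held 30.0% in the nuclear fraction with doxycycline (Clopper-Pearson interval 26.4 to 33.9) and 24.9% in the total one (22.3 to 27.7). On the log2 scale the ratio of miR-222 to miR-221 was higher in the nuclear than in the total fraction by 0.37 (0.04 to 0.70), a difference that lies just outside counting error and has no replicate check.

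**Figure D2:**
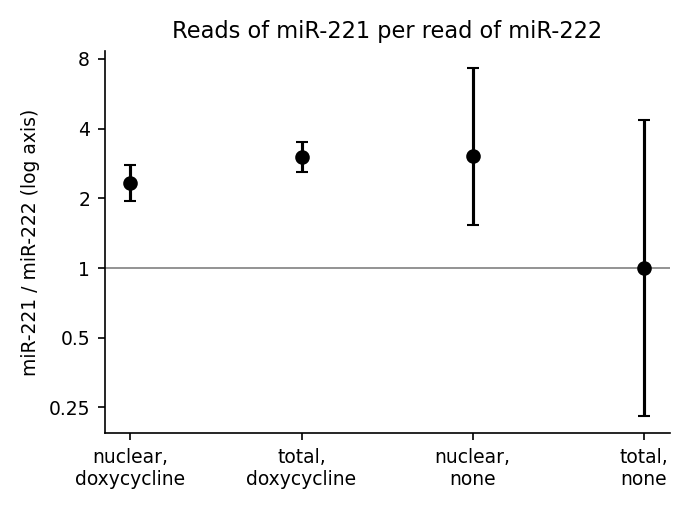
Reads of miR-221 divided by reads of miR-222 in each group, on a log axis, with 95% Clopper-Pearson counting intervals; the grey line marks equal numbers. The ratio lies at 2.33 and 3.02 with doxycycline and at 3.05 in the nuclear fraction without it, all above the line, while the interval of the total fraction without doxycycline runs from 0.230 to 4.35.

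With doxycycline, the nuclear pull-down was set beside the total one to ask whether nuclear AGO2 holds these miRNAs in the same proportion. Relative to the other miRNAs, miR-221 was lower in the nuclear fraction, at 0.733 times its total level (0.649 to 0.827), a log2 fold of -0.45 (-0.62 to -0.27). miR-222 was at 0.948 times (0.778 to 1.15), a log2 fold of -0.08 (-0.36 to 0.21), and is not distinguishable from equal at this depth. Both together were at 0.787 times (0.709 to 0.871). TMM factors, which set the typical miRNA to no change, were used to scale the means, and an entry was tested if its mean count reached 10 in either group compared. The direction for miR-221 was the same under each of 7 other settings, from -0.40 with library totals without miR-805 to -0.86 without scaling.

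A fold of at least 2 served as the rule of size for counting entries. By this rule 10.3% of the 378 tested entries were higher in the nuclear fraction and 3.97% lower (7.41% and 11.6% without scaling), and 0 of the 2 members passed in either direction. The median log2 fold of all tested entries was -0.04. Of the other 377 entries, 307 had a higher fold than miR-221 and 70 a lower one, while miR-222 lay near the middle with 198 above and 179 below.

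Marker miRNAs of other cells were followed in the same groups. The endothelial miRNA miR-126 had 2 of 2 arms above 0, summed to 556 CPM (nuclear) and 929 CPM (total), and both arms were within 2-fold (median log2 fold -0.65). The fibroblast and mesenchymal markers had 12 of 13 entries above 0, with miR-10a* at 0 in both groups, and summed to 1018 and 1307 CPM, and of 6 tested 0 were higher and 1 lower (median -0.37). The let-7 family, raised in differentiated cells, summed to 1259 CPM (14 of 14 above 0) and 1571 CPM (12 of 14, with let-7f* and let-7b* at 0), and of 7 tested 0 were higher and 1 lower (median -0.15). Blood markers (8 of 8 above 0) summed to 8979 and 7726 CPM, and of 6 tested 2 were higher and 0 lower (median 0.17). Neural markers (9 of 9) summed to 8028 and 6000 CPM, while of 7 tested 1 was higher and 1 lower (median -0.03). The 9 muscle and liver markers summed to 994 CPM (9 above 0) and 781 CPM (7 above 0, with miR-133a and miR-133b at 0), and the 2 tested were within 2-fold (median 0.12). Their part in the fold of miR-221 was not tested.

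Induced cells were set against uninduced ones to ask how far the reads depended on the induced AGO2. In the nuclear fraction miR-221 had 13.0 times more reads with doxycycline (9.04 to 19.2) and miR-222 had 16.95 times more (9.46 to 37.8), both near the 16.1-fold median of the 371 tested entries. In the total fraction miR-221 had 151 times more (64.3 to 466) and miR-222 had 50.0 times more (21.1 to 155.3), where the median of 359 tested entries was 33.2-fold. Sequencing depth is part of these ratios and cannot be told apart from induction. The reads without doxycycline amounted to 7.71% of those with it for miR-221 and 5.90% for miR-222 in the nuclear fraction, and to 0.663% and 2.00% in the total fraction.

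**Figure D3:**
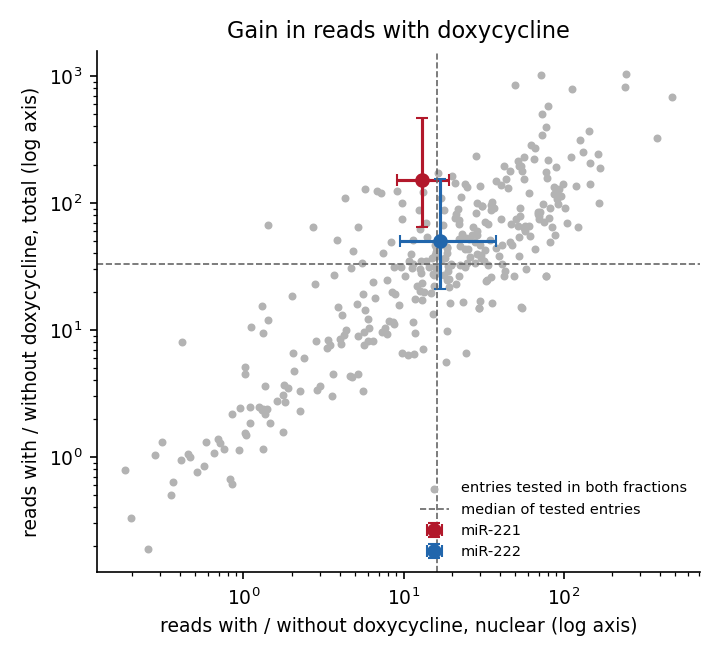
Ratio of reads with to reads without doxycycline in the nuclear (horizontal) and the total fraction (vertical), both on log axes, for 331 of the 345 entries tested in both, the other 14 having a 0; bars on miR-221 (red) and miR-222 (blue) are 95% counting intervals and dashed lines the medians of tested entries, 16.1 and 33.2. Both miRNAs lie near the nuclear median, and miR-221 lies above the total median at 151.

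With TMM scaling the nuclear log2 fold was -0.27 (-0.79 to 0.30) for miR-221 and 0.12 (-0.73 to 1.27) for miR-222. Neither differed from the typical miRNA beyond counting error, and 0 of 2 members reached 2-fold, against 30.5% of tested entries higher and 33.7% lower (66.6% and 18.6% with median-of-ratios factors, 81.1% and 4.04% without scaling, 16.2% and 46.1% with library totals without miR-805). Both signs turned with the scaling: miR-221 went to 0.23 by library totals and 1.76 with median-of-ratios factors, and miR-222 to -0.79 with library totals without miR-805. Positions among the entries do not depend on scaling. By them 210 of the other 370 had a larger gain than miR-221 and 181 than miR-222. miR-222 passed the minimum only through the group with doxycycline, with a mean of 59.3 against 3.5 without it. The minimum thus favoured a high gain for miR-222, and nothing is read from its position.

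In the total fraction the TMM-scaled log2 fold was 2.23 (1.00 to 3.85) for miR-221 and 0.63 (-0.61 to 2.27) for miR-222. Thus 1 of 2 members was at least 2-fold higher and 0 lower, where 31.8% of tested entries were higher and 32.0% lower (50.7% and 20.6% with median-of-ratios factors, 91.9% and 0.836% without scaling, 19.5% and 39.8% with library totals without miR-805). The share of 1 in 2 is not a result about the pair, since both passed the minimum only through the group with doxycycline. Of the other 358 entries, 38 gained more than miR-221 and 134 more than miR-222. The minimum likewise favoured a high gain here, so nothing is read from these positions.

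The marker miRNAs of other cells were also compared between cells with and without doxycycline. Among all tested entries of the total fraction, 31.8% passed the rule of size upward and 32.0% downward. In the nuclear fraction these shares were 30.5% and 33.7%, and the median log2 fold of all tested entries was 0.04 in each fraction. In the total fraction 1 of 2 endothelial entries was higher and 0 lower (median log2 fold 1.34), and the summed level was 929 CPM with and 332 CPM without doxycycline. Of 6 fibroblast and mesenchymal markers 0 were higher and 5 lower (median -1.97), with sums of 1307 and 2928 CPM, and without doxycycline miR-10b, miR-214, miR-214*, miR-199b* and miR-10a* were at 0. Of 7 let-7 entries 0 were higher and 5 lower (median -2.30), with sums of 1571 and 11386 CPM. Blood markers had 0 of 5 higher and 2 lower (median -0.92), neural markers 3 of 7 higher and 2 lower (median -0.06), and muscle and liver markers 0 of 2 higher and 1 lower (median -2.91), with sums of 7726, 6000 and 781 CPM with and 13829, 7558 and 5855 CPM without doxycycline. In the nuclear fraction 0 of 2 endothelial entries passed in either direction (median 0.40), while 4 of 5 fibroblast and mesenchymal markers were lower (median -1.38), as were 4 of 7 let-7 entries (median -1.47), 2 of 6 blood markers (median -0.70), 2 of 7 neural markers (median -0.30, with 2 higher) and 2 of 3 muscle and liver markers (median -6.10). Their part in the gains of miR-221 and miR-222 was not tested.

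The counting interval of the difference in gain between the fractions left out no difference for miR-221 and held it for miR-222. The intervals of the 2 members overlap, and whether the members differ from each other was not tested. The log2 gain in the total fraction exceeded that in the nuclear fraction by 2.50 (1.13 to 3.87) for miR-221, by 0.52 (-1.04 to 2.08) for miR-222, and by 1.81 (0.80 to 2.81) for both together, using a normal approximation to counting error. For all 345 entries tested in both fractions the median was -0.10, and 16.2% exceeded 2-fold in that direction and 18.0% in the other. Of the other 344 entries, 13 had a larger value than miR-221 and 94 a larger one than miR-222. The value of miR-221 turns on the 5 reads of the total fraction without doxycycline and has no replicate check. In the total fraction both miRNAs passed the minimum only through the group with doxycycline. The minimum thus favoured a high gain there and with it a high difference, and nothing is read from the differences or the positions.

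Without doxycycline the fractions differed for miR-221, with 32 reads over the nuclear and 5 over the total group. Its log2 fold, nuclear over total, was 2.25 (0.88 to 3.97), and 20 of the other 188 tested entries lay higher. It was the only member tested and passed the rule of size, as did 23.8% of the 189 tested entries, while 16.9% passed it in the other direction (15.3% and 40.2% by library totals). It reached the minimum through the nuclear group alone, with a mean of 10.7 against 10 required and 1.67 in the total group, so the minimum favoured a high value here and nothing is read from the call or the position. miR-222, with 10.5 and 5 reads, did not reach the minimum for testing, and its log2 fold of 0.64 (-1.11 to 2.47, from 10 and 5 whole reads) is not distinguishable from equal at this depth. These comparisons share their groups with those above, so the high value of miR-221 here and its small nuclear gain are not separate observations.

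**Figure D4:**
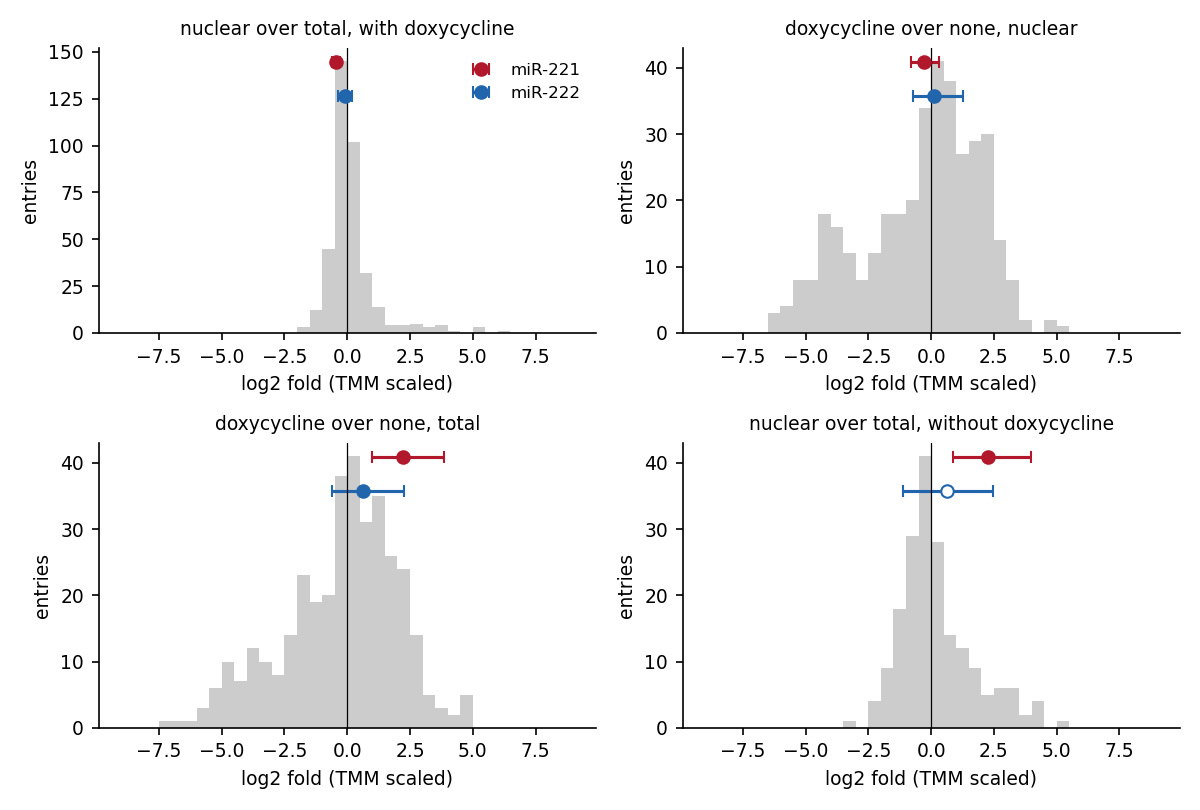
TMM-scaled log2 fold of all tested entries (grey bars, number of entries per bin) and of miR-221 (red) and miR-222 (blue) with 95% counting intervals, in the 4 comparisons; the open symbol marks miR-222 below the minimum for testing. miR-221 lies at -0.45, -0.27, 2.23 and 2.25 and miR-222 at -0.08, 0.12, 0.63 and 0.64, in the order nuclear over total with doxycycline, doxycycline over none (nuclear, then total), and nuclear over total without doxycycline.

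Other pairs of neighbouring hairpins give a scale for the distance between miR-221 and miR-222. Pairs were limited to entries with a single RefSeq hairpin. In longer clusters successive pairs shared an entry, and many pairs came from the single cluster of miR-379 to miR-410. The pairs are therefore not separate references. Over 70 other pairs of adjacent hairpins on the same strand within 10000 bases, each represented by its more abundant unstarred entry, the median absolute difference of the log2 folds between the fractions with doxycycline was 0.37. The distance between miR-221 and miR-222 was 0.37, with 35 of those pairs closer. For the gain in the nuclear fraction the distance was 0.39 against a median of 0.84, with 22 of 70 pairs closer. The log2 ratio of miR-222 to miR-221 changed there by 0.39 (-0.65 to 1.42). That interval holds both no change and the median of the other pairs. For the gain in the total fraction it was 1.59 against 1.202, with 41 of 68 pairs closer. There the log2 ratio of miR-222 to miR-221 changed by -1.59 (-3.39 to 0.21), which includes no change. That value rests on 5 reads of each miRNA in the total fraction without doxycycline.

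miRNAs known to repress inhibitors of cyclin-dependent kinases share the best known role of miR-221 and miR-222. The list held 25 entries, among them the pair, miR-291a, miR-294, miR-295 and miR-302 members, which act on Cdkn1a in mouse embryonic stem cells, and miR-17 family members, which act on CDKN1A in human cells. It took 42.5% of nuclear and 46.3% of total reads with doxycycline, of which the pair made up 0.116% and 0.134%. Between the fractions with doxycycline 24 of the 25 were tested, and 0 were at least 2-fold higher, 1 lower and 23 within 2-fold. Of all entries 10.3% were higher and 3.97% lower. The list's median log2 fold was -0.29 beside -0.04 for all entries. The list's most abundant entries were miR-294 at -0.27 (-0.28 to -0.26), miR-291a-3p at 0.27 (0.26 to 0.28) and miR-295 at -0.31 (-0.32 to -0.29). Of the 24, 18 had a higher fold than miR-221 and 4 a higher one than miR-222. For doxycycline over none, 10 of 24 passed the rule of size upward and 5 downward in the nuclear fraction (30.5% and 33.7% of all entries), and 11 and 6 in the total fraction (31.8% and 32.0%). The list's medians were 0.27 and 0.55, beside 0.04 in each fraction for all entries. For its 16 tested entries without a star they were 2.10 and 1.99. The 0.04 covers entries with and without a star, and no median of all entries without a star is given here. Whether 2.10 and 1.99 are particular to the list was thus not tested. The gain of miR-221 in the nuclear fraction lay below 18 of all 24 tested entries, with and without a star, and in the total fraction below 6. Its position in the total fraction carries the limit of the minimum given above. Without doxycycline 17 entries of the list were tested, of which 1, miR-221 itself, was higher and 3 lower (23.8% and 16.9% of all entries), with a median of -0.58 beside -0.09.

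A second list held 27 entries of miRNAs raised in differentiated or mesenchymal cells, a company in which miR-221 and miR-222 are usually found. It took 2.83% of nuclear and 3.17% of total reads with doxycycline, against 0.0493% and 0.0620% for the pair. Between the fractions with doxycycline 22 were tested, with 0 higher, 2 lower and 20 within 2-fold. Of all entries 10.3% were higher and 3.97% lower. The list's median was -0.17. Its most abundant entries were miR-34a, a brake on the cell cycle induced by p53, at -0.22 (-0.26 to -0.17), the widely expressed miR-21 at 0.26 (0.21 to 0.30), and miR-27b at -0.55 (-0.61 to -0.50), of which miR-27b was below miR-221. For doxycycline over none, 1 of 21 was higher and 8 lower in the nuclear fraction (30.5% and 33.7% of all entries; median 0.02 beside 0.04), and 3 of 22 higher and 9 lower in the total fraction (31.8% and 32.0%; median -0.25 beside 0.04), where none gained more than miR-221 and 4 gained more than miR-222. In the total fraction the positions of miR-221 and miR-222 carry the limit of the minimum given above. The list's entries without a star had medians of 0.20 and 0.25, with no such median of all entries given here. Without doxycycline 0 of 14 were higher and 1 lower (23.8% and 16.9% of all entries; median -0.02 beside -0.09).

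Of the 637 entries matched to a RefSeq miRNA gene, 84 had all their copies on the X chromosome. With doxycycline 29 of these were tested between the fractions, of which 1 was at least 2-fold higher, 3 lower and 25 within 2-fold (median -0.23 beside -0.04). For doxycycline over none, 10 of 25 were higher and 8 lower in the nuclear fraction (30.5% and 33.7% of all entries; median 0.37 beside 0.04), and 10 of 29 higher and 10 lower in the total fraction (31.8% and 32.0%; median -0.00 beside 0.04). Without doxycycline 7 were tested, miR-221 among them, of which 4 were higher and 2 lower in the nuclear fraction (23.8% and 16.9% of all entries). The median was 1.40 beside -0.09. Of the 84, 6 reached the minimum in the nuclear and 4 in the total group. Some thus entered through the nuclear group alone, which favoured a high value, and nothing is read from these counts or this median.

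Entries most like each member over the 4 groups were found by the distance between log2(CPM + 10) profiles centred on their own mean, among the 384 other entries whose mean count reached 10 in any group. For miR-221 the nearest were miR-466h at a distance of 0.24, miR-324-5p at 0.34, miR-485* at 0.46 and miR-652 at 0.49, where the median of all was 2.24. These 4 had between 0.333 and 1.00 mean reads in the total fraction without doxycycline, so their likeness to miR-221 rests on few reads there. For miR-222 the nearest were miR-335-5p at 0.15, miR-23a at 0.16, miR-494 at 0.20 and miR-1983 at 0.21, where the median was 1.73. The cluster partner was less near, at 1.25. With 4 groups a pattern has few points, and the distance has no error attached.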

How the data were processed

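Small RNA from anti-FLAG pull-downs of tagged AGO2 was sequenced in 12 libraries. The authors deposited estimated counts (expected counts), averaged over each group, with 1 column per group. That 3 libraries lie behind each mean is an inference: times 3, between 78.4% and 91.4% of values per column came out whole (tolerance 1e-06). The submitters' processing notes name the mm10 build, TopHat and bcl2fastq 2.17.1. How reads were counted, or divided between similar miRNAs, is not given in the sources used here.

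The planned test (the quasi-likelihood test of edgeR) needs per-library counts and was not run. Folds were computed from means scaled with TMM factors (edgeR 4.0.16, R 4.3.3), for entries whose mean reached 10 in either compared group. Intervals are 95% Clopper-Pearson for ratios, from mean counts times 3 rounded to whole reads, and 95% Wilson for shares. They cover counting error only, since PCR reads carried no molecular identifiers. A count of 0 was set to 3 reads over the group. Lower counts above 0 were kept, so an entry without reads could show a smaller gain than an entry with few. This enters the positions and the shares of entries at least 2-fold higher or lower. The fold and its counting interval were tested on simulated counts with known library totals. That test covered neither the TMM factors nor variation between libraries. Scripts ran in Python 3.11.15 with SciPy 1.17.1, pandas 2.3.3 and matplotlib 3.10.9.

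Of 689 entries, 637 were matched to a RefSeq miRNA gene by name and 52 were not. The named entries were the members, miRNAs with their seed, the 4 most alike, the 3 neighbours in rank on each side, and the 3 most abundant of each list. Adjacent hairpin pairs were added after the values were seen. Members, lists and rules were chosen with earlier results of these data known. Strand ratios were planned but the members have 1 entry each.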

Additional observations from a re-analysis of the deposited data

How the results depend on the processing

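Other scalings, other filters on low counts and subtraction of the reads without doxycycline gave 48 alternative values for miR-221 and miR-222, of which 34 stayed within the counting interval of the reported value and 14 did not. For nuclear over total with doxycycline, miR-221 was -0.86 and miR-222 -0.49 on the log2 scale without scaling, and miR-221 was -0.66 without a filter. For doxycycline over none in the nuclear fraction, miR-221 and miR-222 were 1.76 and 2.14 with median-of-ratios factors, 3.70 and 4.08 without scaling, -1.18 and -0.79 with library totals without miR-805, and 1.54 and 1.92 without a filter. With at least 10 in both groups miR-221 was 0.49. In the total fraction they were 7.24 and 5.64 without scaling. The difference of gains between fractions stayed within its interval for both; for miR-222 it went from 0.52 to -0.05 with library totals.

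Counts of entries at least 2-fold higher or lower were the planned measure, and 32 of their 50 alternatives moved by over 1.5 times. Percentages of tested entries were added after the values were seen, because 1 count is not printed here, and by them 23 of 50 moved, partly because filters change the number tested. For nuclear over total with doxycycline (39 higher, 15 lower; 10.3% and 3.97%) 44 were lower without scaling (11.6%), 170 and 50 higher and lower without a filter (25.1% and 7.39%), 18 higher with 10 in both groups (5.26%), and 15 and 31 after subtraction (4.45% and 9.2%). For nuclear doxycycline over none (113 and 125; 30.5% and 33.7%) they were 247 and 69 with median-of-ratios factors (66.6% and 18.6%), 301 and 15 without scaling (81.1% and 4.04%), 247 and 301 without a filter, and 61 and 66 with 10 in both, and 60 were higher without miR-805 (16.2%). For the total fraction (114 and 115; 31.8% and 32.0%) the same settings gave 182 and 74 (50.7% and 20.6%), 330 and 3 (91.9% and 0.836%), 188 and 316 (50.6% lower), 50 and 50, and 70 higher (19.5%). For nuclear over total without doxycycline (45 and 32; 23.8% and 16.9%) they were 29 and 76 by library totals (15.3% and 40.2%) and 12 and 14 with 10 in both (9.6% and 11.2%), 50 were lower with median-of-ratios factors (26.5%) and 15 without scaling (7.94%), and without a filter 164 were higher and 18.5% of 658 lower. The cause was not tested, except that the filters change which entries are counted and no scaling leaves sequencing depth in the fold. The median log2 fold of all entries moved with the scaling, for nuclear doxycycline over none from 0.04 to 0.55 by library totals, 2.07 with median-of-ratios factors, 4.01 without scaling and -0.87 without miR-805.

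No paired analysis was possible because the table has 1 mean column per group and no replicate columns. Nor was a replicate left out. With at least 10 in both groups, miR-222 had no fold against cells without doxycycline and miR-221 none in the total fraction. Without doxycycline, 5 reads of each miRNA in the total fraction limit every comparison that uses that group.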
